A study of Mus musculus with 9 samples.

Results

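This comparison asks what changes in the poly(A) transcriptome of Hepa 1-6 cells, a mouse liver hepatoma line, when the gene Usp5 is knocked out. The 3 control libraries are labelled as carrying a control guide with the genotype Control, and the labels do not say what that guide targets. The 3 knockout libraries come from cells that received a lentiviral CRISPR plasmid with a guide against Usp5, and all groups were grown in the same serum-containing medium. Knockout lines were picked as single-cell clones by serial dilution and several clones were checked by immunoblot, so an effect of the knockout and a difference that 1 clone carried already cannot be told apart. The labels number the libraries without saying that they are separate cultures or clones, and p-values therefore measure only the spread between these libraries. Another 3 libraries, from Ythdf1 knockout cells made with a CRISPR/Cas9/EGFP plasmid, entered the fit to share its estimate of spread. The members are the genes with at least 10 counts in 3 or more of the 6 control and Usp5 knockout libraries, 13646 of the 53647 genes in the table.

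USP5 is a deubiquitinase, an enzyme that cuts ubiquitin chains. It acts above all on free chains, those no longer attached to a protein, and returns single ubiquitin to the pool that tags proteins for the proteasome and for signalling. Hepatocyte-derived tumour cells keep part of the liver programme, which is held by factors such as HNF4A and the FOXA proteins, and they can also show genes of bile duct cells, the other epithelial lineage of the liver.

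The libraries held between 24760877 and 42989715 counts, with control replicates 1 and 2 and Usp5 replicate 1 above 35000000. Mitochondrially encoded transcripts took 2.32% to 5.91% of counts in controls and 3.67% to 6.14% in the knockout. Control replicate 3 stood apart from the other controls, with the lowest mean correlation with its own group (r = 0.989 across genes). Of the 16 hepatoma identity markers, 11 were tested. All 16 summed to 4630 to 5200 CPM (counts scaled to a common library size) in controls and 5468 to 5915 CPM in the knockout. Marker sums here took every listed gene in the table, over raw library sizes. Leukocyte markers summed to 14 to 15.5 CPM and 10.0 to 11.6 CPM, and 5 of the 12 (Adgre1, Cd3e, Cd8a, Ms4a1 and Nkg7) were at 0 in all 6 libraries. The endothelial list stayed between 1.46 and 1.76 CPM in all 6, with Emcn at 0. Stellate and fibroblast markers summed to 934 to 1288 CPM and 1080 to 1452 CPM, nearly all from Dcn (decorin, 997 and 1233 CPM on average), while Col1a2, Lrat and Thy1 were at 0.

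Usp5 itself, the labels' check, had 233, 223 and 183 CPM in the controls and 122, 112 and 110.0 CPM in the knockout. The groups did not overlap, and the transcript fell by 0.89 ± 0.11 on the log2 scale (adjusted p = 3.00e-04, edgeR's quasi-likelihood test with Benjamini-Hochberg adjustment over all genes tested, as for every adjusted p here). A guide-made mutation need not remove the transcript, and these data hold no protein measurement. In all, 2669 genes were called at an adjusted p under 0.05 (19.6% of those tested), 1344 higher (9.85%) and 1325 lower (9.71%) in the knockout. At least 2-fold changes made up 740 of them (5.42% of genes tested), 308 higher and 432 lower. The libraries of the groups did not overlap in 2584 of the called genes, against 4510 of all genes tested (33%). The count of calls was 4317 without control replicate 3, 1468 without control replicate 2, 1585 without Usp5 replicate 2 and 1729 without control replicate 1. With library sizes alone as the scaling, 36.3% of calls were higher, against 50.4% in the TMM-scaled fit, and the median log2 fold change of all genes moved from -0.01 to -0.09. A split by library size, above or below 35000000 counts and chosen after the data were seen, placed control replicates 1 and 2 and Usp5 replicate 1 in the deeper class. A fit with that class as a term called 3764 genes, 2625 of the 2669 among them.

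**Figure D1:**
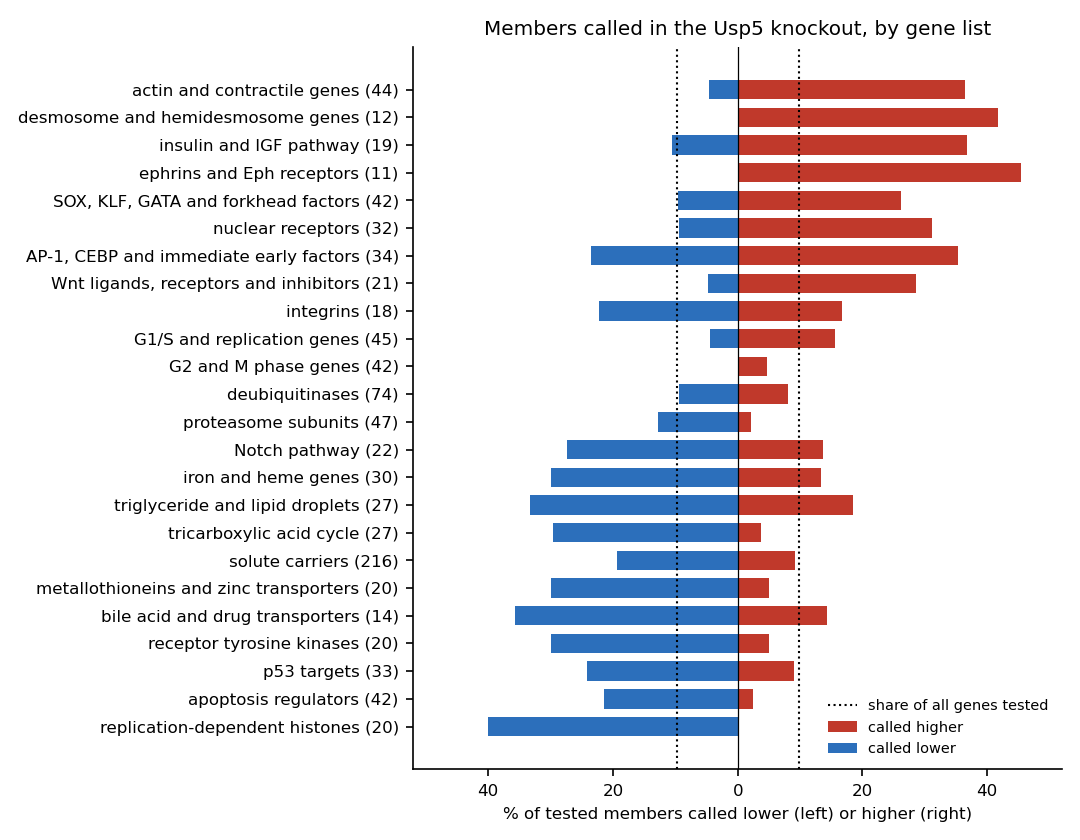
Percent of tested members called higher (red, right) or lower (blue, left) at an adjusted p under 0.05 in each of 24 gene lists, with the number of members tested in brackets. Dotted lines mark the shares of all genes tested, 9.85% higher and 9.71% lower. Actin and contractile genes lie to the right and replication-dependent histones to the left.

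Deubiquitinases were called in both directions, at shares close to those of all genes. Of 74 deubiquitinases tested, of 85 in the table, 6 rose and 7 fell. These shares were 8.11% and 9.46%, against 9.85% and 9.71% of all genes tested. Without Usp5 replicate 3, 17 fell, with library sizes alone 14, and with the library-size class as a term 18. Stambpl1, a protease that cuts K63-linked chains, had 50.9, 50.3 and 67.6 CPM in controls and 102, 126 and 118 CPM in the knockout, a rise of 1.04 ± 0.13 on the log2 scale (adjusted p = 3.30e-04). Its knockout libraries all lay above the controls, and Usp2 rose to a similar degree (0.96 ± 0.14, adjusted p = 9.69e-04). Usp16, which removes ubiquitin from histone H2A and lies on chromosome 16, rose by 0.87 ± 0.11 (adjusted p = 3.62e-04). Usp14, a deubiquitinase bound to the proteasome, went from 119, 131 and 123 CPM to 82, 89 and 97.1 CPM and fell by 0.48 ± 0.081 (adjusted p = 0.00251).

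Ubiquitin itself is made from polyubiquitin genes and from fusions with ribosomal proteins. Of 10 ubiquitin genes and relatives or partners of Usp5 tested, Usp5 among them, 2 rose and 2 fell (20% each). The count that rose was 0 without control replicate 2 or Usp5 replicate 2, 1 without control replicate 1 or Usp5 replicate 1 and in the fit of 6 libraries, 5 without Usp5 replicate 3, and 4 with the library-size class as a term. Ubb, a stress-responsive polyubiquitin gene, had 427, 388 and 572 CPM in controls and 1058, 983 and 545 CPM in the knockout. Usp5 replicates 1 and 2 were high, replicate 3 lay within the control range, and the call (log2 0.90 ± 0.22, adjusted p = 0.0193) was lost without control replicate 1 (adjusted p = 0.0662), control replicate 2 (adjusted p = 0.0854), Usp5 replicate 1 (adjusted p = 0.0633) or Usp5 replicate 2 (adjusted p = 0.0729). The fusion gene Rps27a did not pass (log2 -0.52 ± 0.17, adjusted p = 0.0537), except with DESeq2 (adjusted p = 0.0193), with library sizes alone (adjusted p = 0.0395), with no filter (adjusted p = 0.0151), with the library-size class as a term (adjusted p = 0.0406) and without control replicate 3 (adjusted p = 7.25e-04), where it was lower. Of 47 proteasome genes tested, 6 fell (12.8%) and 1 rose (2.13%), against 9.71% and 9.85% of all genes tested. The count of those that fell was 2 without control replicate 2 or Usp5 replicate 2, 3 without control replicate 1, Usp5 replicate 1 or Ythdf1 replicate 1 or 3, 3 in the fit of 6 libraries, 10 with the library-size class as a term, and 18 without control replicate 3. The single rise was absent without control replicate 1, Usp5 replicate 1 or 2, and in the fit of 6 libraries, and there were 2 without control replicate 3. Psmd6, a lid subunit, fell by 0.50 ± 0.096 (adjusted p = 0.00469), and Psmb8, an immunoproteasome subunit, by 0.71 ± 0.15 (adjusted p = 0.00865).

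The liver transcription factors moved in opposite directions. Hnf4a, a nuclear receptor at the centre of hepatocyte identity, had 222, 209 and 216 CPM in the controls and 313, 309 and 299 CPM in the knockout. Every knockout library was above every control, and the gene rose by 0.51 ± 0.068 (adjusted p = 5.81e-04). Foxa2, a forkhead factor that opens liver chromatin, rose by 0.83 ± 0.17 (adjusted p = 0.00666). Foxa3, chosen after its values were seen, rose by 0.66 ± 0.12 (adjusted p = 0.00355). The third FOXA gene went the other way, with Foxa1 at 6.06, 5.72 and 9.01 CPM in controls and 1.57, 1.60 and 1.88 CPM in the knockout (-2.04 ± 0.20, adjusted p = 8.34e-05).

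Nr5a2, the nuclear receptor LRH-1 that drives bile acid and cholesterol genes, had 14, 14.5 and 19.2 CPM in controls and 2.41, 2.58 and 2.96 CPM in the knockout. It fell by 2.59 ± 0.16 (adjusted p = 3.60e-06). Tbx3, a T-box factor of liver progenitors, went from 130.3, 125 and 151 CPM to 63.5, 64.3 and 60.1 CPM and fell by 1.11 ± 0.083 (adjusted p = 1.29e-05). Cebpa, a bZIP factor of mature hepatocytes, fell by 0.59 ± 0.14 (adjusted p = 0.0136), a call lost without control replicate 1 (adjusted p = 0.0529). None of these 3 overlapped between groups.

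Of 32 nuclear receptors tested, 10 rose (31.2%) and 3 fell (9.38%), against 9.85% and 9.71% of all genes tested. Their median log2 fold change was 0.12, against -0.01 for all genes. The 10 became 5 without control replicate 2 or Usp5 replicate 2, and 6 without control replicate 1 and in the fit of 6 libraries, and 5 fell without control replicate 3. Esrrg, an orphan receptor of oxidative metabolism, had 1.35, 1.27 and 1.93 CPM in controls and 6.43, 6.97 and 7.07 CPM in the knockout (2.19 ± 0.18, adjusted p = 2.55e-05). Pparg, the fatty acid receptor of fat storage, rose by 0.71 ± 0.13 (adjusted p = 0.00322). Among 42 SOX, KLF, GATA and forkhead factors, 11 rose (26.2%) and 4 fell (9.52%). The count that rose was 21 without control replicate 3 and 7 without control replicate 1 or Usp5 replicate 2. The count that fell was 2 without control replicate 1 or Usp5 replicate 1 and in the fit of 6 libraries. Foxq1 had 84.8, 80.4 and 90.9 CPM in controls and 191, 210.0 and 185 CPM in the knockout, a rise of 1.20 ± 0.079 (adjusted p = 5.42e-06). Foxo3, a factor held in check by insulin signalling, fell by 0.54 ± 0.068 (adjusted p = 3.61e-04).

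Liver products and lineage markers did not follow a single direction. Alb (albumin) had 546, 533 and 688 CPM in controls and 821, 965 and 1009 CPM in the knockout, above all controls, and rose by 0.66 ± 0.13 (adjusted p = 0.0049). Afp, the fetal albumin relative and hepatoma marker, was at 1064, 1079 and 1005 CPM and 1131, 1165 and 1267 CPM and did not pass (log2 0.18 ± 0.078, adjusted p = 0.137), although DESeq2 called it higher (adjusted p = 0.0313). Gpc3, a cell surface glypican and hepatoma marker, went from 41.2, 43.3 and 46 CPM to 8.04, 9.31 and 9.95 CPM and fell by 2.26 ± 0.096 (adjusted p = 3.53e-07). Its groups were far apart relative to the spread of either. Of 10 bile duct markers tested, 5 rose (50%) and 1 fell (10%), against 9.85% and 9.71% of all genes tested. Without control replicate 1 or 2 or Usp5 replicate 2, 3 rose. Krt7, a keratin of bile duct cells, had 135, 125 and 125 CPM in controls and 233, 217 and 209.8 CPM in the knockout (0.78 ± 0.086, adjusted p = 1.62e-04). Sox9, a progenitor and duct factor, rose by 0.98 ± 0.23 (adjusted p = 0.0131), but the call was lost without control replicate 1 (adjusted p = 0.0527), control replicate 2 (adjusted p = 0.0605) or Usp5 replicate 2 (adjusted p = 0.0526). Cldn4, a tight junction claudin of the same list, fell by 0.60 ± 0.11 (adjusted p = 0.00371).

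**Figure D2:**
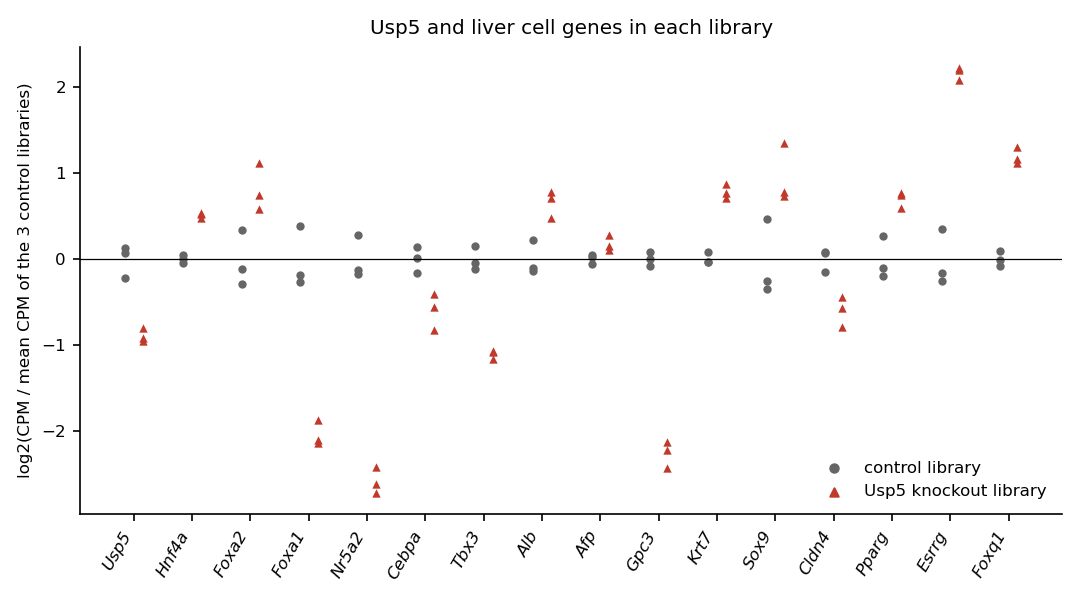
Level of Usp5 and 15 liver cell genes in each library as log2 of CPM over the mean CPM of the 3 controls (grey circles, control libraries; red triangles, Usp5 knockout libraries). Nr5a2, Gpc3 and Foxa1 lie lowest in the knockout and Esrrg highest, while Afp lies close to the controls.

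Integrins are the receptors that hold cells to the matrix. Of 18 tested (of 31 in the table), 3 rose (16.7%) and 4 fell (22.2%), against 9.85% and 9.71% of all genes tested. Itgb4, the beta subunit of the hemidesmosome's laminin receptor, had 100.3, 86.4 and 84.1 CPM in controls and 189.8, 181 and 179 CPM in the knockout, a rise of 1.02 ± 0.085 (adjusted p = 2.45e-05). Itga6, its alpha partner, had 292, 305 and 320.4 CPM and 399.8, 443 and 480.0 CPM and rose by 0.53 ± 0.089 (adjusted p = 0.00228). For both genes all knockout libraries were above all controls. Itgb3, a beta subunit of receptors for vitronectin, went from 13, 13.3 and 11.9 CPM to 4.33, 4.43 and 3.42 CPM and fell by 1.65 ± 0.15 (adjusted p = 3.72e-05). Its alpha partner Itgav fell by 0.54 ± 0.13 (adjusted p = 0.0139), a call lost without Usp5 replicate 2 (adjusted p = 0.0634). Itgb6, which also pairs with Itgav, fell by 0.73 ± 0.10 (adjusted p = 7.95e-04), and Itga2, a collagen receptor subunit, by 0.73 ± 0.14 (adjusted p = 0.00456). Itgb1, the beta subunit shared by most matrix receptors, overlapped between groups (log2 0.05 ± 0.096, adjusted p = 0.743).

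No list of matrix genes was counted, and 4 of those named are described singly. Fn1 (fibronectin) had 5526, 5159.6 and 6470.1 CPM in controls and 8739, 9284 and 9019 CPM in the knockout and rose by 0.66 ± 0.098 (adjusted p = 0.00111). Lamc1, the laminin gamma chain of most basement membranes, had 229.7, 209 and 240.4 CPM and 391, 399 and 422 CPM (0.83 ± 0.08, adjusted p = 6.11e-05), and Nid1, which links laminin to collagen, rose by 0.81 ± 0.073 (adjusted p = 4.15e-05). Lamb3, a chain of the laminin that the Itga6 and Itgb4 receptor binds, went down instead, from 258, 245 and 189 CPM to 129, 113 and 121 CPM (log2 -0.93 ± 0.12, adjusted p = 5.32e-04). No library of 1 group entered the range of the other for these 4 genes. Of 12 desmosome and hemidesmosome genes, 5 rose (41.7%) and none of the 12 fell, against 9.85% and 9.71% of all genes tested. Without control replicate 3, 7 were higher and 1 lower. Desmosomes are the junctions that anchor keratin filaments between epithelial cells. Pkp1 had 6.10, 5.01 and 5.71 CPM in controls and 11, 11 and 11.2 CPM in the knockout (0.98 ± 0.12, adjusted p = 2.43e-04), and Dsp, the desmoplakin that binds keratin, rose by 0.37 ± 0.08 (adjusted p = 0.00975).

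Actin and contractile genes rose more often than they fell: of 44 tested (51 in the table), 16 rose (36.4%) and 2 fell (4.55%). The shares of all genes tested were 9.85% and 9.71%. The median log2 fold change of the list was 0.23. The count that rose was 9 without control replicate 2 and 9 in the fit of 6 libraries, and the median was 0.15 with library sizes alone. Myh10, a nonmuscle myosin heavy chain, had 48.1, 47.3 and 48.5 CPM in controls and 90.2, 91.3 and 87.3 CPM in the knockout, a rise of 0.90 ± 0.067 (adjusted p = 1.16e-05). The spread within either group was small beside that step. Tpm2, a tropomyosin, was at 1.09, 1.25 and 1.09 CPM and 6.01, 5.72 and 4.57 CPM (2.25 ± 0.18, adjusted p = 1.79e-05). Ezr (ezrin), which ties actin to the membrane, rose by 0.70 ± 0.12 (adjusted p = 0.00308), and Pdlim1, a stress fibre adaptor, by 0.87 ± 0.082 (adjusted p = 5.77e-05). Actb rose by 0.33 ± 0.083 (adjusted p = 0.0192), but that call was lost without control replicate 2 (adjusted p = 0.0767) or Usp5 replicate 1 (adjusted p = 0.0555), and with library sizes alone (0.0725) and with no filter (0.0539) and in the fit of 6 libraries (0.0691). The pair that fell were Pls1, a fimbrin of microvilli (log2 -1.07 ± 0.16, adjusted p = 0.00128), and Cfl2, a cofilin (log2 -0.68 ± 0.12, adjusted p = 0.00364).

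Targets of YAP and TEAD, the transcription partners that respond to cell shape and tension, went both ways. Of 25 tested, 7 rose (28%) and 6 fell (24%), against 9.85% and 9.71% of all genes tested. Ccn2, a secreted matricellular protein, had 413, 396 and 389 CPM in controls and 1239, 1115 and 996 CPM in the knockout (1.48 ± 0.092, adjusted p = 3.61e-06). Ccn1, its relative, rose by 0.75 ± 0.085 (adjusted p = 2.00e-04). Both were above the controls in all 3 knockout libraries. Ptpn14, a phosphatase that restrains YAP, went from 6.28, 6.23 and 5.31 CPM to 2.17, 2.30 and 2.23 CPM (log2 -1.42 ± 0.12, adjusted p = 3.67e-05), and the kinase gene Nuak2 fell by 0.89 ± 0.11 (adjusted p = 2.99e-04).

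**Figure D3:**
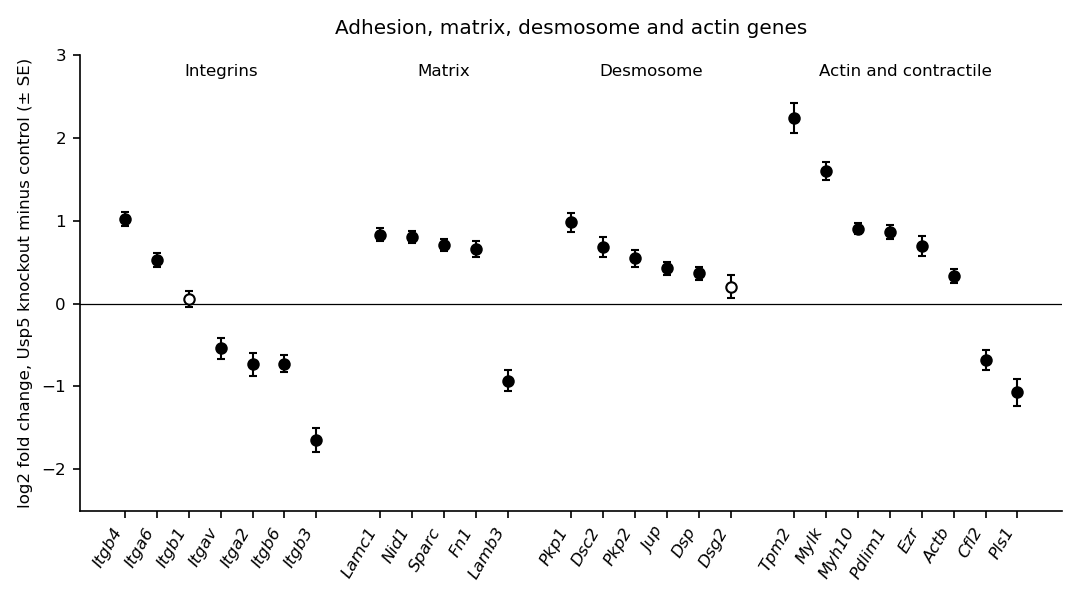
Log2 fold change (Usp5 knockout minus control) with its standard error for 26 genes of integrins, matrix, desmosome and actin. Filled points passed an adjusted p of 0.05 and open points did not. Itgb4 and Itga6 lie above 0 and Itgb3, Itgb6, Itga2 and Itgav below, and all desmosome genes shown lie above 0, Dsg2 without passing.

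Guidance molecules first described in axons included a ligand, a receptor and an adhesion molecule that fell more than 2-fold. Sema3g, a secreted semaphorin, had 14.7, 15.5 and 9.81 CPM in controls and 0.772, 0.279 and 0.384 CPM in the knockout and fell by 4.71 ± 0.33 (adjusted p = 7.37e-06). Nrp2, a neuropilin that serves as a semaphorin receptor, went from 30.6, 31.4 and 36 CPM to 7.22, 6.62 and 7.53 CPM (-2.20 ± 0.095, adjusted p = 3.71e-07). The related receptor Nrp1 overlapped between groups (log2 -0.10 ± 0.076, adjusted p = 0.381). Nrcam, an adhesion molecule that joins such receptors, went from 20.3, 19.4 and 19.1 CPM to 2.81, 2.44 and 3.34 CPM (-2.78 ± 0.13, adjusted p = 8.12e-07). Over the family of 23 semaphorins, plexins and neuropilins tested, 3 rose and 3 fell (13% each, against 9.85% and 9.71% of all genes tested). Without control replicate 1 or 2, 1 rose. Eph receptors, which bind ephrins on neighbouring cells, went up where they passed. Of 11 Eph and ephrin genes, 5 rose (45.5%) and none of the 11 fell, while with library sizes alone 4 rose and 1 fell. Ephb4 had 279, 266 and 241 CPM in controls and 422, 376 and 374 CPM in the knockout (0.57 ± 0.089, adjusted p = 0.00138), and Ephb6 rose by 0.79 ± 0.14 (adjusted p = 0.00287).

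Receptors and ligands of growth factors moved in both directions within families. Fgfr1 had 56.1, 53.9 and 55.1 CPM in controls and 110.5, 118 and 108 CPM in the knockout and rose by 1.02 ± 0.066 (adjusted p = 4.90e-06), and the ligand Fgf1 rose by 1.03 ± 0.11 (adjusted p = 1.33e-04). Fgfr2 went from 13, 13.2 and 11.9 CPM to 7.67, 7.43 and 8.56 CPM and fell by 0.69 ± 0.11 (adjusted p = 0.00129). Fgfr4, the receptor through which hepatocytes sense bile acid signals from the gut, did not pass (log2 0.12 ± 0.092, adjusted p = 0.39). A separate list of 20 receptor tyrosine kinases and their ligands leaves out the FGF, Eph, ERBB and insulin receptor families. Of these 20, 6 fell (30%) and 1 rose (5%), against 9.71% and 9.85% of all genes tested. The single rise was absent without control replicate 1 or 2, Usp5 replicate 1 or 2, or Ythdf1 replicate 1 or 3, and in the fit of 6 libraries, and there were 2 without control replicate 3 or Usp5 replicate 3 and 3 with the library-size class as a term. Gas6, the ligand of AXL, TYRO3 and MERTK, had 97.1, 91.3 and 83.9 CPM in controls and 39.1, 36.2 and 37.3 CPM in the knockout (-1.27 ± 0.079, adjusted p = 3.61e-06). Csf1, the growth factor of macrophages, went from 179.6, 173 and 182 CPM to 88.9, 96.4 and 86.2 CPM (-0.98 ± 0.072, adjusted p = 1.16e-05). Neither gene overlapped between groups, and Tyro3 fell as well (-0.76 ± 0.17, adjusted p = 0.00959).

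Of 19 insulin and IGF pathway genes tested, 7 rose (36.8%) and 2 fell (10.5%), against 9.85% and 9.71% of all genes tested. Without Usp5 replicate 2, 5 rose and 1 fell. Irs1, the adaptor that passes the signal from the insulin receptor, had 167, 164 and 158 CPM in controls and 268, 272 and 246 CPM in the knockout (0.68 ± 0.07, adjusted p = 1.03e-04). Irs2 rose by 0.41 ± 0.069 (adjusted p = 0.00256). The binding proteins that hold IGFs outside the cell rose too, Igfbp3 from 468, 451 and 586 CPM to 1007, 1009.8 and 998 CPM (1.00 ± 0.10, adjusted p = 1.08e-04) and Igfbp1 by 0.69 ± 0.11 (adjusted p = 0.00132). Insr, the receptor, went from 52.4, 52.7 and 51.6 CPM to 39.7, 38.2 and 44.7 CPM and fell by 0.35 ± 0.077 (adjusted p = 0.00993), a call lost without Usp5 replicate 2 (adjusted p = 0.0526).

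Of 22 Notch pathway genes, 6 fell (27.3%) and 3 rose (13.6%), against 9.71% and 9.85% of all genes tested. The count that rose was 1 without control replicate 2 or Usp5 replicate 2 and 5 without control replicate 3. Notch1 went from 28.1, 26.3 and 29.6 CPM to 13.7, 17.1 and 13.4 CPM (-0.93 ± 0.11, adjusted p = 2.76e-04) and Notch3 from 5.46, 4.77 and 4.79 CPM to 1.26, 1.32 and 1.57 CPM (-1.86 ± 0.15, adjusted p = 1.70e-05). Both receptors were below every control in every knockout library. Jag1, a ligand, did not pass (log2 0.07 ± 0.071, adjusted p = 0.549). Hes1, a repressor that Notch induces in many tissues and a gene of chromosome 16, rose by 0.55 ± 0.079 (adjusted p = 8.60e-04).

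Wnt ligands act through frizzled receptors and beta-catenin, and some targets of the pathway feed back on it. Of 21 ligands, receptors and inhibitors tested, 6 rose (28.6%) and 1 fell (4.76%), against 9.85% and 9.71% of all genes tested. There were 3 lower without control replicate 3 or with the library-size class as a term and 2 without Usp5 replicate 3. Wnt5a, a ligand that mostly works without beta-catenin, had 49, 46.3 and 56.3 CPM in controls and 84.8, 97.7 and 98.5 CPM in the knockout (0.89 ± 0.095, adjusted p = 1.29e-04). Wnt10a went from 26.5, 25 and 21.8 CPM to 5.82, 7.18 and 6.30 CPM (-1.93 ± 0.12, adjusted p = 4.04e-06). The groups were separate for both. Rnf43, a ubiquitin ligase that removes frizzled receptors, rose by 0.54 ± 0.072 (adjusted p = 5.35e-04), and its relative Znrf3 did not pass (log2 0.18 ± 0.069, adjusted p = 0.0968), except with DESeq2 (adjusted p = 0.0448) and without control replicate 3 (adjusted p = 0.0329). Ctnnb1 (beta-catenin) fell by 0.44 ± 0.095 (adjusted p = 0.00917). Nkd1, a feedback inhibitor of the pathway, had 227, 216 and 267 CPM in controls and 707, 729.6 and 641 CPM in the knockout (1.55 ± 0.097, adjusted p = 3.61e-06).

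The next 3 genes were chosen after their values were seen. Sp5, a zinc finger target of beta-catenin, had 231, 206 and 248 CPM and 391, 423 and 333 CPM (0.74 ± 0.11, adjusted p = 7.95e-04), Tcf7l2, a DNA-binding partner of beta-catenin, rose by 1.31 ± 0.26 (adjusted p = 0.00645), and Axin2, the usual readout of the pathway, did not pass (log2 0.19 ± 0.078, adjusted p = 0.114) while DESeq2 called it higher (adjusted p = 0.0371). The 250 bases before the start of Sp5 (chr2:70474673-70474922) and Nkd1 (chr8:88527383-88527632) are shown because both genes rose, from RefSeq on GRCm38.p6, plus strand, 5′ to 3′. Capitals mark matches to the pattern CTTTGANC (N, any base), used here for the TCF and LEF motif and searched on both strands.
Sp5: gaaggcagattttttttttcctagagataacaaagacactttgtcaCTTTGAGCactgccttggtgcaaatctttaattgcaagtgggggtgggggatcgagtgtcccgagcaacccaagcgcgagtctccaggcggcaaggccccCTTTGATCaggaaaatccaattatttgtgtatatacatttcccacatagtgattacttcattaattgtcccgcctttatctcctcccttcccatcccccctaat
Nkd1: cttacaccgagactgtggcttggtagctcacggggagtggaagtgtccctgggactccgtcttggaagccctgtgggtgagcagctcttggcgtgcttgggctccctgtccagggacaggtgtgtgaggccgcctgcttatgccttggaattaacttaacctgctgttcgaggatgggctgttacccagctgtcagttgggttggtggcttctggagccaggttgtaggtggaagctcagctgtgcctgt
Sp5 holds 2 matches and Nkd1 none in this window. Over 32851 promoters of the same length, 3.47% hold at least 1 match and 0.0974% at least 2. A match is a description of letters, and its absence says nothing about the factor.

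Other surface proteins moved by 2-fold or more with narrow spread. Gprc5b, an orphan receptor, went from 52.5, 53.3 and 51.1 CPM to 12.8, 13.1 and 12.2 CPM (-2.04 ± 0.073, adjusted p = 1.10e-07). The nucleotide receptors P2ry2 and P2ry1 went opposite ways: P2ry2 from 28.8, 26.6 and 31.7 CPM to 11.6, 11.1 and 11.7 CPM (-1.34 ± 0.099, adjusted p = 1.17e-05) and P2ry1 from 9.08, 9.92 and 11.2 CPM to 22.2, 24.1 and 29.5 CPM (1.33 ± 0.14, adjusted p = 1.05e-04). Avpr1a, the vasopressin receptor of hepatocytes, rose by 1.32 ± 0.099 (adjusted p = 1.29e-05), and Ano1, a calcium-gated chloride channel, had 12.8, 13.1 and 12.2 CPM in controls and 50.8, 48.6 and 47.7 CPM in the knockout (1.95 ± 0.082, adjusted p = 3.53e-07). Enpp2 (autotaxin), the secreted enzyme that makes lysophosphatidic acid, went from 34.9, 38.6 and 42.7 CPM to 5.49, 5.65 and 6.45 CPM (-2.72 ± 0.12, adjusted p = 3.57e-07).

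Heme and iron genes fell more often than they rose. Of 30 tested, 9 fell (30%) and 4 rose (13.3%), against 9.71% and 9.85% of all genes tested. Without control replicate 2, 5 fell. The 4 that rose became 2 without control replicate 1, Usp5 replicate 2 and in the fit of 6 libraries, and 1 without control replicate 2. Alad, an early enzyme of heme synthesis, had 227, 214 and 194 CPM in controls and 119, 101 and 91.5 CPM in the knockout (-1.03 ± 0.11, adjusted p = 1.70e-04). Hmox1, the inducible heme oxygenase that breaks heme down, went from 55.2, 53.9 and 59.96 CPM to 25.4, 25.5 and 25.8 CPM (-1.14 ± 0.072, adjusted p = 3.96e-06). Fech, which closes heme synthesis by inserting iron, moved the other way, 118, 118 and 156 CPM against 164, 181 and 183 CPM (0.43 ± 0.11, adjusted p = 0.0262). That call was lost without control replicate 1 (adjusted p = 0.0953), control replicate 2 (adjusted p = 0.11), Usp5 replicate 2 (adjusted p = 0.0858) or Usp5 replicate 3 (adjusted p = 0.0593), and in the fit of 6 libraries (0.0639). Blvrb, a biliverdin reductase downstream of heme oxygenase, rose by 0.43 ± 0.088 (adjusted p = 0.00671). The iron genes Tfrc (-0.18 ± 0.11, adjusted p = 0.294), the transferrin receptor, and Slc40a1 (0.27 ± 0.11, adjusted p = 0.108), the exporter ferroportin, did not pass.

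Zinc handling genes fell more often than they rose. Slc39a8, an importer of zinc and other divalent metals, went up, from 18.8, 20.5 and 24.2 CPM to 67.2, 78.6 and 72 CPM (1.78 ± 0.11, adjusted p = 4.40e-06). Of 20 metallothionein and zinc transporter genes tested, 1 rose (5%), Slc39a8, and 6 fell (30%), against 9.85% and 9.71% of all genes tested. Without control replicate 3, 2 rose. In TPM (counts scaled by gene length to a common total), Slc39a8 averaged 12.1 in controls and 36.8 in the knockout. Slc39a4 averaged 92.7 and 55.7 TPM, Slc30a4 45.5 and 29.3, and Slc30a7 10.6 and 6.28. Mt1 and Mt2 encode the metallothioneins, small proteins that buffer zinc and copper and are induced by metals through metal response elements. Mt2 went from 17.2, 13.7 and 15.8 CPM to 7.41, 7.25 and 6.34 CPM (-1.15 ± 0.13, adjusted p = 2.21e-04). Its neighbour Mt1 had 71.2, 67.6 and 116 CPM in controls and 92.2, 100.4 and 91 CPM in the knockout, overlapped between groups because of control replicate 3, and did not pass (log2 0.16 ± 0.18, adjusted p = 0.583), although it was called higher without control replicate 3 (adjusted p = 0.00366). The 250 bases before the start of Mt1 (chr8:94178839-94179088) and Mt2 (chr8:94172368-94172617) are shown because these adjacent genes differed, from RefSeq on GRCm38.p6, plus strand, 5′ to 3′. Capitals mark the core of the metal response element, TGCACNC or TGCGCNC, searched on both strands and counted together.
Mt1: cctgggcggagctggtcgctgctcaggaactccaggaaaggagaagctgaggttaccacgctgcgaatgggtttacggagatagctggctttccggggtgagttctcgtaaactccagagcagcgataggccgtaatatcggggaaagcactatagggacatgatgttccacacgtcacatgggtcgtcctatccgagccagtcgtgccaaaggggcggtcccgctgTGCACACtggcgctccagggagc
Mt2: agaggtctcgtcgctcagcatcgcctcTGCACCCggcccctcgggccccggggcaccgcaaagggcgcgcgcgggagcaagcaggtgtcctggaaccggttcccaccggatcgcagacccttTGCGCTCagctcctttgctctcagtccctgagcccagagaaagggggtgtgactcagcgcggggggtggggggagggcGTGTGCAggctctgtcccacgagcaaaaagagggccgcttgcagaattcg
The window of Mt1 holds 1 match and that of Mt2 holds 3. Elements outside these 250 bases were not counted, so the counts do not compare the metal response of the genes. Whether the matches bear on the difference between Mt1 and Mt2 was not tested. Of 32851 promoters of this length, 21.4% hold at least 1 and 1.26% at least 3.

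Among export pumps of drugs and bile acids more genes fell than rose. Of 14 tested (26 in the table), 5 fell (35.7%) and 2 rose (14.3%), against 9.71% and 9.85% of all genes tested. Abcg2, a breast cancer resistance protein that exports many drugs, had 31.3, 34.9 and 28.6 CPM in controls and 13.8, 12.8 and 14.3 CPM in the knockout (-1.22 ± 0.095, adjusted p = 1.63e-05). Both mouse P-glycoprotein genes fell, Abcb1a from 33.8, 38.6 and 40.8 CPM to 18.1, 17.2 and 22 CPM (-0.98 ± 0.11, adjusted p = 2.43e-04) and Abcb1b from 89.6, 93 and 101 CPM to 46.1, 46.9 and 54.4 CPM (-0.94 ± 0.089, adjusted p = 5.57e-05). They are close copies, so the authors' counting may have divided reads between them. Abcc4, an exporter of bile acids and nucleotides, fell by 0.74 ± 0.089 (adjusted p = 2.92e-04). Abcc5, on chromosome 16, rose by 0.55 ± 0.074 (adjusted p = 5.87e-04), and Abcc2 (log2 -0.20 ± 0.10, adjusted p = 0.186) and Abcc3 (log2 0.21 ± 0.078, adjusted p = 0.0893) did not pass, although DESeq2 called Abcc3 higher (adjusted p = 0.0418). With the library-size class as a term Abcc2 was called lower (adjusted p = 0.0282) and Abcc3 higher (adjusted p = 0.0332).

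Over the 216 solute carriers tested, 42 fell (19.4%) and 20 rose (9.26%), against 9.71% and 9.85% of all genes tested. The median log2 fold change of these carriers was -0.13. Without control replicate 2, and likewise without Usp5 replicate 2, 28 fell and 13 rose. Slc26a2, a sulfate importer, had 49.995, 55.1 and 55.3 CPM in controls and 139, 149 and 161 CPM in the knockout (1.49 ± 0.083, adjusted p = 2.03e-06). Slc38a4, an amino acid carrier of the liver, went from 36.1, 37.3 and 39.7 CPM to 11.2, 10.6 and 11.8 CPM (-1.75 ± 0.087, adjusted p = 1.09e-06), and Slc6a13, a GABA and taurine carrier, from 7.10, 7.90 and 5.59 CPM to 1.10, 0.802 and 0.768 CPM (-2.92 ± 0.24, adjusted p = 1.97e-05).

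The tricarboxylic acid cycle had 8 of 27 tested members lower (29.6%) and 1 higher (3.7%), against 9.71% and 9.85% of all genes tested. The single rise was absent without control replicate 1 or 2, Usp5 replicate 1 or 3, or Ythdf1 replicate 1 or 3 and in the fit of 6 libraries, and there were 2 without control replicate 3 or with the library-size class as a term. The 8 became 4 without control replicate 1, control replicate 2 or Usp5 replicate 2, and 5 without Usp5 replicate 1 and in the fit of 6 libraries. Idh3a, a subunit of isocitrate dehydrogenase, went from 90.8, 96.2 and 76.3 CPM to 55.3, 51.7 and 62.3 CPM (-0.64 ± 0.10, adjusted p = 0.00178), and Suclg2, of succinyl-CoA ligase, from 83.5, 84.8 and 77.3 CPM to 50.6, 54.6 and 58.5 CPM (-0.59 ± 0.078, adjusted p = 5.64e-04). Dld, the shared subunit of the pyruvate and oxoglutarate dehydrogenases, fell by 0.47 ± 0.095 (adjusted p = 0.00689). Pcx, which makes oxaloacetate from pyruvate, fell by 0.95 ± 0.13 (adjusted p = 6.19e-04). Of 29 amino acid catabolism and urea cycle genes tested, 3 rose (10.3%) and 5 fell (17.2%). These counts were 1 and 3 without control replicate 2, and 2 and 9 without control replicate 3. Ass1, the urea cycle enzyme that joins citrulline and aspartate, had 30.1, 27.3 and 29.9 CPM in controls and 68.5, 68.2 and 68.5 CPM in the knockout (1.23 ± 0.071, adjusted p = 2.22e-06). Arg2, the mitochondrial arginase, went from 12.4, 12.8 and 12.1 CPM to 3.53, 3.35 and 3.80 CPM (-1.81 ± 0.09, adjusted p = 1.09e-06). The spread within groups of both was narrow.

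Triglyceride and lipid droplet genes fell in 9 (33.3%) and rose in 5 (18.5%) of 27 tested, against 9.71% and 9.85% of all genes tested. The 5 became 1 to 3 when any 1 of the 9 libraries was left out (1 without control replicate 2, Usp5 replicate 2 or 3, or Ythdf1 replicate 1 or 3, 2 without control replicate 1 or Usp5 replicate 1, and 3 without the others), and 1 with library sizes alone. G0s2, an inhibitor of the lipase ATGL, went from 18.6, 13.4 and 12.4 CPM to 5.80, 4.64 and 3.69 CPM (-1.64 ± 0.20, adjusted p = 2.93e-04), and the phosphatidate phosphatases Lpin2 and Lpin1 fell by 0.61 ± 0.08 (adjusted p = 4.91e-04) and 0.50 ± 0.081 (adjusted p = 0.00189). Lipa, the lysosomal lipase, rose by 0.69 ± 0.093 (adjusted p = 5.64e-04). Abcd2, a peroxisomal importer of very long chain fatty acids, rose from 6.77, 6.67 and 6.43 CPM to 17.6, 17.5 and 21 CPM (1.49 ± 0.10, adjusted p = 6.96e-06). Of 34 peroxisome genes tested, 7 fell (20.6%) and 2 rose (5.88%), or 4 rose with the library-size class as a term. That count of 7 was 12 without control replicate 3, 3 without control replicate 1 or 2 or Usp5 replicate 2, and 4 without Ythdf1 replicate 1 and in the fit of 6 libraries. Apoe, the lipoprotein ligand, rose as well, at 2164, 2010.3 and 2047 CPM in controls and 4662, 3991 and 3887 CPM in the knockout (1.01 ± 0.097, adjusted p = 6.28e-05).

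**Figure D4:**
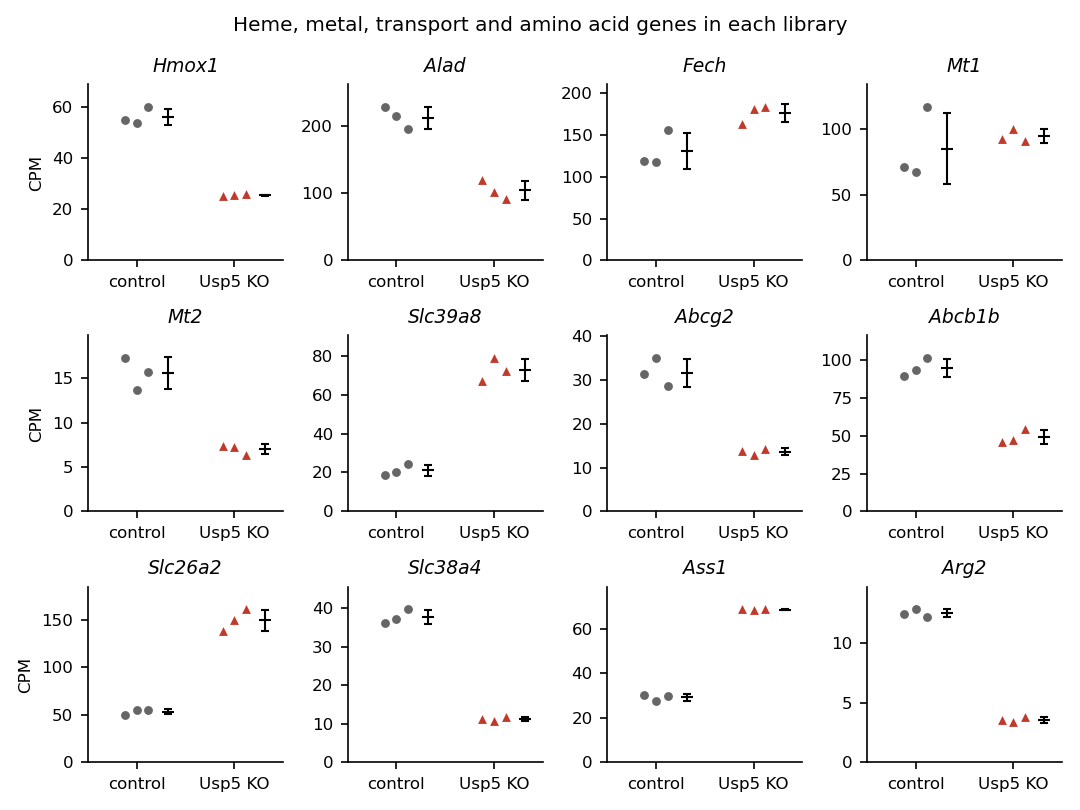
CPM of 12 heme, metal, transport and amino acid genes in each control (grey circles) and Usp5 knockout (red triangles) library, with the mean and SD of 3 libraries in black and each axis starting at 0. All panels but Mt1 show groups that do not overlap.

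Proliferation genes were counted in a list for division and a list for replication. Of 42 genes of G2 and M phase tested, 2 rose (4.76%) and none of the 42 fell, against 9.85% and 9.71% of all genes tested. There were 8 higher and 1 lower without control replicate 3, and 4 higher with the library-size class as a term. Without control replicate 1 or 2 or Usp5 replicate 1 or 2, 1 was higher. Mki67 had 321, 346 and 557 CPM in controls and 348, 393 and 385 CPM in the knockout, with control replicate 3 the highest of all (log2 -0.12 ± 0.19, adjusted p = 0.694). Top2a (log2 -0.10 ± 0.09, adjusted p = 0.47) and Ccnb1 (-0.09 ± 0.088, adjusted p = 0.504) also overlapped between groups. Of 45 G1/S and replication genes, 7 rose (15.6%) and 2 fell (4.44%), and 3 rose and 4 fell with library sizes alone. The 7 became 3 without control replicate 2, 4 without Usp5 replicate 2 and in the fit of 6 libraries, and 11 without control replicate 3, and 5 fell with the library-size class as a term. Cdc45 (0.55 ± 0.082, adjusted p = 0.0011) and Mcm4 (0.49 ± 0.086, adjusted p = 0.00322), both of the replicative helicase, rose and both lie on chromosome 16. E2f2, an activator of S phase genes, went from 9.70, 9.64 and 9.45 CPM to 3.46, 3.28 and 2.96 CPM (-1.56 ± 0.11, adjusted p = 5.99e-06), and Cdkn2c, an inhibitor of CDK4 and CDK6, fell by 0.94 ± 0.16 (adjusted p = 0.00237).

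Replication-dependent histones fell in 8 of the 20 members tested (40%), of 63 in the table, against 9.71% of all genes tested. Their median log2 fold change was -0.81. The count that fell was 5 without control replicate 1 or 2 and 4 in the fit of 6 libraries. These transcripts normally lack a poly(A) tail, so poly(A) libraries capture a small part of them. H2bc4 had 11.1, 9.34 and 11.8 CPM in controls and 3.39, 4.08 and 4.19 CPM in the knockout (-1.47 ± 0.13, adjusted p = 3.09e-05).

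Among 33 p53 targets, 8 fell (24.2%) and 3 rose (9.09%), against 9.71% and 9.85% of all genes tested. The 8 became 5 without control replicate 1 or 2 or Usp5 replicate 2 and 12 with library sizes alone, and 5 rose without control replicate 3 and with the library-size class as a term. Pmaip1 (NOXA), a killer protein of the BCL2 family, went from 58.6, 65.2 and 64.6 CPM to 34.4, 32.9 and 39.2 CPM (-0.82 ± 0.086, adjusted p = 1.18e-04). Fas, the death receptor, went from 7.30, 8.20 and 7.36 CPM to 3.16, 3.17 and 3.23 CPM (-1.26 ± 0.11, adjusted p = 3.70e-05), and Trp53inp1 fell by 0.89 ± 0.11 (adjusted p = 4.03e-04). Cdkn1a (-0.24 ± 0.091, adjusted p = 0.0879) and Mdm2 (-0.33 ± 0.14, adjusted p = 0.131), the best known targets, did not pass, although with the library-size class as a term both were called lower (adjusted p = 0.0328 and 0.00729), and with library sizes alone Cdkn1a was (adjusted p = 0.02). Perp, a target that is also a desmosome protein, had 150.2, 151 and 159 CPM in controls and 260.0, 246 and 254 CPM in the knockout (0.72 ± 0.069, adjusted p = 5.98e-05). Of 42 apoptosis regulators, 9 fell (21.4%) and 1 rose (2.38%). There were 15 lower and 4 higher without control replicate 3, 2 higher without Usp5 replicate 3 and 3 higher with the library-size class as a term. None was higher without control replicate 1 or 2 or Usp5 replicate 2 and in the fit of 6 libraries. The inflammatory caspases Casp4 (-1.47 ± 0.20, adjusted p = 6.29e-04) and Casp1 (-0.86 ± 0.18, adjusted p = 0.00774) were among those that fell.

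Changes were spread unevenly over the chromosomes, which were taken by gene identifier from a GENCODE annotation for 13629 of the 13646 genes. Chromosome 16 had 151 of its 407 tested genes called higher (37.1%) and 7 lower (1.72%), against 9.02% higher and 9.97% lower over all other chromosomes. Its median log2 fold change was 0.29, against -0.02 elsewhere, a ratio of 1.23 to the all-gene median. It held 2.98% of genes tested and 11.2% of all higher calls, and 132 of its 151 higher calls were under 2-fold. Relative to the control mean, the median of its genes was -0.03, -0.01 and 0.06 in the control libraries and 0.28, 0.30 and 0.34 in the knockout libraries, which do not overlap. The shift ran along the whole chromosome: in 8 consecutive blocks of 39 neighbouring genes each, the medians lay between 0.23 and 0.36, above every block of any other chromosome. With library sizes alone the median was 0.21, and it was 0.28 to 0.32 when each library was left out. In the Ythdf1 knockout, which shares these controls, the median of chromosome 16 was -0.15. Other regions departed too. The first block of chromosome 18, Cul2 to Zfp24, had a median of -0.31, with 16 of 42 genes lower and 2 higher. In the Ythdf1 knockout its median was -0.37. Genes called lower made up 15.4%, 14.5%, 14.5% and 13.9% of chromosomes 3, 6, 9 and 11, and genes called higher 5.74%, 7.27%, 5.99% and 5.22%. Genome copy number was not measured here.

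Several genes with a small p-value or described above lie on chromosome 16. Mylk, the myosin light chain kinase, had 6.17, 6.60 and 7.40 CPM in controls and 21, 21.5 and 18.6 CPM in the knockout (1.60 ± 0.11, adjusted p = 5.57e-06). Tigit, a receptor usually studied on lymphocytes, had 26.7, 27.7 and 25.5 CPM and 68.4, 68 and 59.1 CPM (1.29 ± 0.092, adjusted p = 8.88e-06), with the lymphocyte markers Cd3e and Cd8a at 0. Robo1, a receptor of slit guidance cues, rose by 0.78 ± 0.094 (adjusted p = 3.00e-04), and Ccdc80, a secreted matrix protein, by 0.69 ± 0.099 (adjusted p = 8.73e-04). Cebpd, a bZIP factor, was 1 of the 7 that fell there (-0.75 ± 0.096, adjusted p = 4.29e-04).

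**Figure D5:**
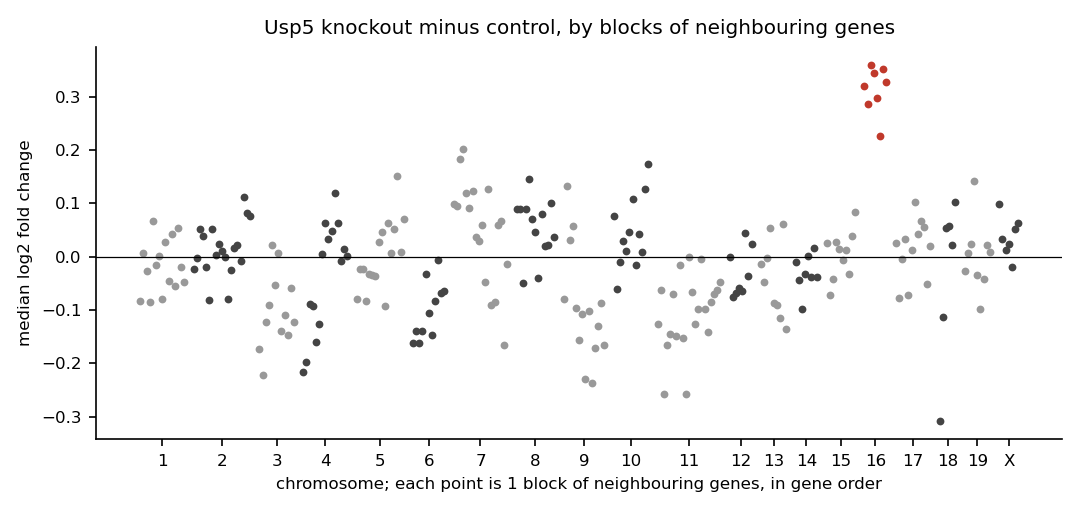
Median log2 fold change (Usp5 knockout minus control) of consecutive blocks of neighbouring protein-coding genes with at least 5 CPM, in gene order along each chromosome, with chromosome 16 in red and the others in alternating greys. All 8 blocks of chromosome 16 lie between 0.23 and 0.36, above every other block.

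Some of these changes set the Usp5 knockout apart from the Ythdf1 knockout, tested as the direct contrast of both knockouts in the same fit. Gpc3 averaged 9.10 ± 0.969 CPM in the Usp5 knockout and 54.3 ± 1.07 CPM in the Ythdf1 knockout (adjusted p of the difference 6.27e-08). Nrp2 averaged 7.12 ± 0.46 and 29.8 ± 0.635 CPM (adjusted p = 2.09e-07), and Enpp2 5.86 ± 0.514 and 41.9 ± 3.95 CPM (adjusted p = 1.12e-07). Hmox1 was at 25.6 ± 0.225 against 149 ± 5.66 CPM (adjusted p = 1.26e-08), Arg2 at 3.56 ± 0.229 against 53.6 ± 2.42 CPM (adjusted p = 3.00e-09) and Mt2 at 7.0 ± 0.58 against 43.9 ± 6.04 CPM (adjusted p = 4.25e-07). For these 3 the control means, 56.3, 12.4 and 15.6 CPM, lay between the knockouts. Hnf4a did not pass in that contrast, at 307 ± 6.99 and 295 ± 5.52 CPM (adjusted p = 0.518), and neither did Itgb4 at 183 ± 5.61 and 168 ± 7.35 CPM (adjusted p = 0.252).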

How the data were processed

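Poly(A) RNA from Hepa 1-6 cells was sequenced in 3 control, 3 Usp5 knockout and 3 Ythdf1 knockout libraries. The authors deposited 1 table of estimated counts per gene, in whole numbers. The submitters' processing notes name fastp 0.23.2, STAR 2.7.10a, Salmon 1.9.0 and the build GRCm39. No source used here gives the annotation release or the strand setting, and reads of overlapping, antisense and near-identical genes may have been shared between them.

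Genes with at least 10 counts in 3 of the 6 control and Usp5 knockout libraries entered 1 edgeR 4.0.16 quasi-likelihood fit over all 9 libraries (R 4.3.3), with TMM scaling and Benjamini-Hochberg adjustment over all genes tested. A call is an adjusted p under 0.05. CPM are counts divided by the TMM-scaled library size, except the summed marker levels, which used raw library sizes. Fold changes are log2 of Usp5 knockout over control with the standard error, and values after ± beside CPM are SDs of 3 libraries. Libraries held 24760877 to 42989715 counts, and the SD of a gene was 10.2% of its mean in controls and 8.7% in the knockout at the median. The script was tested on simulated data.

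The gene lists and the genes named were chosen with earlier results of these data known, and lists get counts and medians, with no test. Named are Usp5, key members of each list, for each list and direction the 4 or fewer called members of largest fold at 5 CPM or more, and, per direction, the 20 called genes with the smallest p at 20 CPM or more and the 20 most abundant with a log2 change of 0.58 or more. Others are marked as chosen after their values were seen. NF-kB and chemokine genes were left out, and some genes that the rule names are not reported here. The alternatives tried were DESeq2 1.42.0, limma-voom (limma 3.58.1), RLE factors or raw library sizes as the scaling, other filters, 6 libraries only, a replicate block, a stricter threshold, each library left out, and, chosen after seeing the data, a library-size class (above 35000000 counts). Chromosomes and gene order came from GENCODE on GRCm38 by gene identifier, and promoter sequences from RefSeq on GRCm38.p6.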

Additional observations from a re-analysis of the deposited data

How the results depend on the processing

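The count of 2669 calls stayed within 1.5 times under RLE scaling (2631), library sizes alone (2808), DESeq2 (3356), limma-voom (2784), no filter (2828), a minimum of 50 counts (2385) and edgeR's own expression filter (2700). The fit of 6 libraries, which drops the Ythdf1 knockout, called 1723 genes, 852 higher and 871 lower. An adjusted p under 0.01 left 1295, 625 higher and 670 lower, and the minimum of 50 counts left 418 genes at 2-fold or more. When each of the 9 libraries was left out, calls ranged from 1468 (without control replicate 2) to 4317 (without control replicate 3), with 694 to 2232 higher, 774 to 2085 lower and 566 to 902 at 2-fold or more. In all, 1331 genes were called in each of the 9 fits. Library sizes alone gave 1018 higher and 1790 lower. With the library-size class as a term, 1880 were higher and 1884 lower.

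With the replicate number as a block, 2292 genes were called, 1151 higher and 1141 lower. The numbers did not pair the libraries throughout: deviations from the group means correlated by 0.504, -0.323 and 0.191 across genes for numbers 1, 2 and 3. The value for number 1 was the highest of any control and Usp5 pair, and Usp5 replicate 3 correlated most with control replicate 3. Control replicate 3 in turn correlated most with Usp5 replicate 2 (0.384). Of the 463 named genes that were called, 42 lost the call with the block, 40 with library sizes alone, 33 with no filter, 112 in the fit of 6 libraries, and 13 to 143 when a library was left out. None of the 463 changed direction under any of these.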

Other observations

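Serpins and coagulation factors, the protease inhibitors and clotting proteins of plasma and tissue, split by gene. Of 31 tested, 7 rose (22.6%) and 8 fell (25.8%), against 9.85% and 9.71% of all genes tested. Serpine2, an inhibitor of thrombin and urokinase, had 16.5, 18.1 and 16.9 CPM in controls and 4.47, 4.01 and 5.07 CPM in the knockout and fell by 1.93 ± 0.10 (adjusted p = 1.37e-06, edgeR). Of the 4 clade B serpins named, 3 fell, Serpinb7 from 50.6, 56.5 and 57 CPM to 23.9, 29.4 and 32.3 CPM (-0.94 ± 0.12, adjusted p = 3.61e-04), Serpinb5 by 1.24 ± 0.19 (adjusted p = 0.00145) and Serpinb2 by 0.85 ± 0.14 (adjusted p = 0.00172), whereas Serpinb8 rose by 0.39 ± 0.082 (adjusted p = 0.0077). F3, the tissue factor that starts clotting, fell by 0.59 ± 0.14 (adjusted p = 0.0127). Among glypicans, syndecans and heparan sulfate enzymes, 4 of 20 tested rose (20%) and 3 fell (15%). Gpc4, a glypican, rose by 0.71 ± 0.068 (adjusted p = 6.40e-05), and Hs3st3b1, a sulfotransferase that finishes heparan chains, had 2.55, 3.11 and 3.46 CPM in controls and 12.7, 13.8 and 11.7 CPM in the knockout (2.08 ± 0.14, adjusted p = 5.51e-06).

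Ion channel genes were called in both directions, 13 higher (20.6%) and 10 lower (15.9%) of 63 tested, against 9.85% and 9.71% of all genes tested. The counts were 8 and 6 without control replicate 2, and 9 and 5 without Usp5 replicate 2. Among single genes with narrow spread, Pik3ap1, an adaptor that brings PI3 kinase to receptors, went from 45.1, 44.3 and 44.9 CPM to 4.56, 4.25 and 5.68 CPM (-3.22 ± 0.11, adjusted p = 9.52e-08), and Sort1, the sorting receptor sortilin, from 41.4, 40.9 and 39.6 CPM to 16.7, 15.1 and 17.5 CPM (-1.31 ± 0.092, adjusted p = 7.99e-06). Pcsk6, a proprotein convertase, had 164, 158 and 158 CPM and 387, 373 and 376 CPM (1.24 ± 0.07, adjusted p = 2.09e-06), and Ihh, a hedgehog ligand, had 13, 13.5 and 13.1 CPM and 33.9, 32.9 and 29.5 CPM (1.28 ± 0.091, adjusted p = 8.81e-06).

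Of 34 AP-1, CEBP and immediate early factors, 12 rose (35.3%) and 8 fell (23.5%), against 9.85% and 9.71% of all genes tested. The counts were 6 and 4 without control replicate 1, 6 and 5 without control replicate 2, and 5 and 6 without Usp5 replicate 2. Ier3, an immediate early gene tied to survival signalling, went from 77.8, 76.7 and 71 CPM to 21.9, 20.7 and 22.6 CPM (-1.79 ± 0.076, adjusted p = 3.53e-07), and Maf, a bZIP factor, rose by 0.77 ± 0.11 (adjusted p = 0.00109). Myc did not pass (log2 0.44 ± 0.17, adjusted p = 0.103) but did without control replicate 3 (adjusted p = 5.56e-04) and with the library-size class as a term (adjusted p = 0.0492). Of 42 autophagy genes, 7 fell (16.7%) and 1 rose (2.38%). There were 12 lower without control replicate 3, 11 without Usp5 replicate 3 and 4 without control replicate 2 or Usp5 replicate 2. The 1 rise was absent without control replicate 2 or Usp5 replicate 2, and 2 rose without Usp5 replicate 1 and 3 without control replicate 3 or with the library-size class as a term. Sqstm1, the ubiquitin-binding cargo receptor p62, had 733, 706 and 559.9 CPM in controls and 513, 418 and 436 CPM in the knockout (-0.55 ± 0.12, adjusted p = 0.0116), a call lost without control replicate 2 (adjusted p = 0.0514) or Usp5 replicate 2 (adjusted p = 0.0541). Bnip3, a mitophagy receptor, fell by 0.72 ± 0.10 (adjusted p = 8.33e-04). Of 18 long noncoding RNAs of known name, 6 fell (33.3%) and none of the 18 rose, while 1 rose without Usp5 replicate 3 or with the library-size class as a term. Neat1, the scaffold of paraspeckles, fell by 0.94 ± 0.19 (adjusted p = 0.00599), and Malat1 did not pass (log2 -0.24 ± 0.16, adjusted p = 0.335).

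Processed pseudogenes, copies of other genes' spliced transcripts, had 38 called higher and 9 lower of 368 tested (12.8% called, against 19.6% of all genes). At the median these pseudogenes averaged 0.97 CPM, and 14% of all genes averaging under 1 CPM were called. Reads of processed pseudogenes cannot be told apart with certainty from those of the parent genes. Calls at 2-fold or more made up 13.7% of genes averaging under 1 CPM, 14.2% of those from 1 to 5 CPM, 4.32% from 5 to 20, 1.36% from 20 to 100 and 0.872% above 100 CPM. The mitochondrial gene mt-Atp8, which overlaps mt-Atp6, spread over 37, 47.8 and 176 CPM in controls and 1169, 1783 and 96.5 CPM in the knockout. Its groups overlapped, and its call (log2 3.55 ± 0.91, adjusted p = 0.022) was lost without control replicate 1 (adjusted p = 0.0728), control replicate 2 (adjusted p = 0.0927) or Usp5 replicate 2 (adjusted p = 0.0783), and in the fit of 6 libraries (0.0507) and under replicate block (0.0792).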
